A study of Drosophila melanogaster with 2 samples.

Results

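Of the 6270 joint binding peaks of the homeodomain protein CG34367, 1018 (16.2%) lay in 208 dense runs. A run was chosen by position alone: distinct summits of the joint list, the deposited peak list thresholded on the irreproducible discovery rate, were sorted along each arm, neighbours at most 3000 bp apart were joined, and runs of 4 or more summits were kept with all their peaks. The positions that made the runs are therefore a description of the joint list and not a finding. The assay was ChIP-seq on intact pupae of Drosophila melanogaster at 24 hours. The line stably carries CG34367 fused at its C-terminus to GFP, and an antibody against GFP pulled down the chromatin. There is 1 group with 2 libraries, biological replicates 1 and 2, which share the line, the stage, the age and the control used in peak calling. The sources used here do not say which promoter drives the fusion, how many animals went into a library or how deep the libraries are.

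A homeodomain is a DNA-binding fold that reads short AT-rich sequence, typically around a TAAT core. In flies, genes that direct development often carry several separate regulatory elements, in their introns or in the sequence around them, each of which can be bound by the same factor. Neighbouring peaks of a factor can mark such groups of elements, but ChIP-seq in whole animals pools all tissues, so it does not show whether the peaks of a run are bound in the same cells.

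The sequences below are the windows of 101 bases centred on the strongest summit of a run, on the plus strand of the RefSeq Release 6 assembly, to which dm6 corresponds. They come from the first 6 of the most summit-rich runs whose window was eligible, and they show what kind of DNA the tallest peaks of these runs sit on. Capitals mark the 4-base homeodomain core, TAAT or its complement ATTA. A run outside any protein-coding gene is called by the genes of the flanking transcription start sites (TSS).

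CG18404 to heca, chr3R:30265596-30265696: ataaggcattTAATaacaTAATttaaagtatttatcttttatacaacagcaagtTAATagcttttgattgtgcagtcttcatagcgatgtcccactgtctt
CG7320 to CheA75a, chr3L:18235961-18236061: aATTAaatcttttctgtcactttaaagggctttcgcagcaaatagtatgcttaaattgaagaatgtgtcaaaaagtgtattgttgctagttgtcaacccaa
Raf, chrX:2300653-2300753: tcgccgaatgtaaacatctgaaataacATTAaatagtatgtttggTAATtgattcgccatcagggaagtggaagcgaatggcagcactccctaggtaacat
Paics, chrX:12751345-12751445: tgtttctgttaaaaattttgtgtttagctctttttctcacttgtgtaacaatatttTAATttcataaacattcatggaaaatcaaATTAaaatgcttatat
Mnt, chrX:3687056-3687156: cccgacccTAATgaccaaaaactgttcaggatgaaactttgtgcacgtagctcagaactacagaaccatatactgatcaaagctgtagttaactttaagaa
CG43389, chr3L:3246451-3246551: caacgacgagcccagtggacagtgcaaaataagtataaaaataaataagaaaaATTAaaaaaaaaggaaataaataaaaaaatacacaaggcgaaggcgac

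None of these 6 windows holds the full palindrome TAATTA, and their GC content ran from 21.8% at Paics to 40.6% at Raf. TAATTA lay within 50 bp of 94 of the 1018 run summits (9.23%), against 9.35% of joint summits outside runs and 5.01% of windows 400 bp to either side of the run summits. At least 1 TAAT or ATTA lay in 76.3% of run windows, against 76.1% of joint windows outside runs and 51.1% of the run flanks. Mean GC content was 32.9% ± 8.91 (SD over 1018 windows) in runs and 32.9% outside them. In the run flanks it was 44.4%, so the summit and flank shares above were not matched for base composition. By these measures the run summits lay close to the other joint summits, and no test was made. At least 1 TAATTA window occurred in 79 of the 208 runs and 2 or more in 14, with at most 3 in a run.

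The paired-class dimer is TAAT and ATTA with 3 bases between them, a pattern that reads the same on both strands. It lay in 14 run windows (1.38%), against 1.45% outside runs and 0.639% of the run flanks. The higher GC content of the flanks applies here too. These 14 windows belonged to 13 runs. The 4 strongest eligible ones are shown with the dimer in capitals, and they were chosen after their values were seen.

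Gug, intron, chr3L:8455516-8455616: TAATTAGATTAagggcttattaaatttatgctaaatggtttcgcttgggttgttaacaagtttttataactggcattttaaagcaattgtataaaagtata
CG12078, intergenic, chr3L:3245321-3245421: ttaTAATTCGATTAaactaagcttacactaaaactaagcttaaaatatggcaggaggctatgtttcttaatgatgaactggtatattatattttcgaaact
sn, intron, chrX:7972491-7972591: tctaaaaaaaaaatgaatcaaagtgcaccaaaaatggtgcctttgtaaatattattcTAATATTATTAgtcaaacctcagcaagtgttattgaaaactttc
vri, intergenic, chr2L:5288341-5288441: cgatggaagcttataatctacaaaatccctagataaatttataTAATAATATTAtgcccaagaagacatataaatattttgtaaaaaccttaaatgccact

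The window at Gug, which encodes the Atrophin corepressor, belongs to a peak with deposited signal 765, at rank 771 in the list of replicate 1 and 399 in that of replicate 2. The summit at vri, a bZIP gene of the circadian clock, lies 553 bp from a TSS and ranks 960 and 808. The window at sn, which encodes the actin-bundling protein fascin, is the strongest peak of its run, with ranks 711 and 536. The deposited signal is the authors' score for each peak. Its scaling is unknown, and it is used for ranks and descriptions within a list.

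Runs were short. A run spanned a median of 4903 bp from its first to its last summit, with a range of 1666 to 15258 bp, and all spans together covered 0.808% of the assembled bases of the arms. Of the 208 runs, 110 held 4 summits, 58 held 5, 18 held 6, and 22 held 7 to 11. The 810 gaps between neighbouring summits in runs had a median of 1172 bp and quartiles of 724 and 1857 bp. The smallest was 199 bp. Over the whole joint list the median gap was 6520 bp. At the threshold, the widest gap inside a run was 2998 bp, and the nearest summit beyond the end of a run lay 3009 bp away, in the other of 2 neighbouring runs in Mnt. A further 277 groups held 3 summits and fell just short. Their peaks were overlapped by the strongest peaks of both replicates in 79.4% of cases, against 83.0% in runs of 4.

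Run peaks tended to lie high in the joint list, though they reached down to its weak end and the tallest stood at rank 5. Deposited signal had a median of 295 in runs, with a range of 137 to 3164. Outside runs the median was 243 and the range 137 to 4557. Of the run peaks, 148 (14.5%) belonged to the strongest 10% of the joint list and 596 (58.5%) to its 3135 strongest peaks. The strongest peak was the first or the last of its run in 84 runs.

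**Figure D1:**
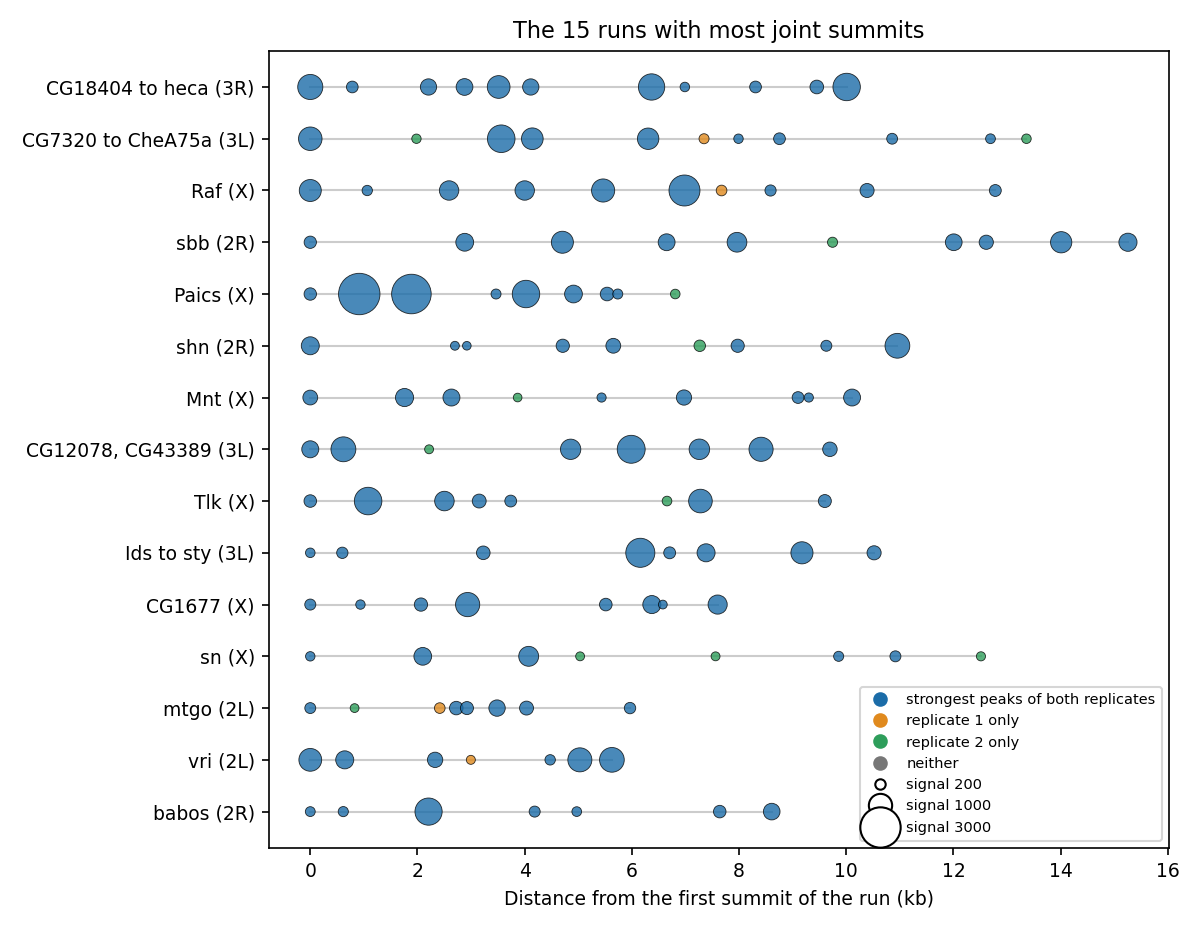
Summits of the 15 runs with most joint summits, by distance in kb from the first summit of each run; point area is deposited joint signal and colour shows whether the peak was overlapped by the 6270 strongest peaks of each replicate. Most points are blue (both replicates), and the runs range from 7 to 11 summits.

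Both runs with 11 summits lay outside protein-coding genes. On 3R, 11 summits between 30255638 and 30265646 stood in the intergenic sequence between CG18404 and heca, the gene of Headcase. The run began 2456 bp beyond a TSS of CG18404 and ended 12286 bp short of a TSS of heca. Replicate 1 placed its 4 strongest summits at ranks 138, 271, 280 and 264, and replicate 2 at 101, 85, 144 and 435. All 11 of its peaks were overlapped by the 6270 strongest peaks of each replicate. By the same joining rule, replicate 1 gave a run of 12 summits there and replicate 2 a run of 11. The 11 summit windows had a mean GC content of 27.0% and held no TAATTA.

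A second run of 11 summits lay on 3L between 18232448 and 18245811, 30954 bp from a TSS of CG7320 and 6277 bp from one of CheA75a. Its peaks repeated less fully, with 9 of 11 in replicate 1 and 10 in replicate 2, and its tallest peak ranked 46 and 398. Also on 3L, 8 summits from 3388878 to 3399398 stood between Ids and sty. The gene sty encodes Sprouty, an antagonist of receptor tyrosine kinase signalling, and its nearest TSS lay 18563 bp away. All 8 peaks were overlapped in each replicate. The run of 9 summits at Paics, which encodes an enzyme of purine synthesis, had 8 intergenic summits, and only its weakest lay in Paics. It held the tallest peak of all runs, whose nearest TSS was one of CG4004, 5078 bp away. That peak stood on X at 12751395 with signal 3164, at rank 10 for replicate 1 and rank 4 for replicate 2. Its neighbour 973 bp away followed at ranks 16 and 9, while the weakest peak of the run, with signal 170, was overlapped by no peak in the full list of replicate 1.

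Other long runs overlapped protein-coding genes. The run at Raf, which lies partly outside the gene, held 10 summits (X, 2293721 to 2306503), 7 of them intronic. Raf encodes the MAP kinase kinase kinase below Ras. In replicate 1 all 10 peaks were overlapped and in replicate 2 9 of them, and the same rule gave runs of 10 and 11 summits. The run in sbb, a corepressor gene, held 10 summits over 15258 bp of intron (2R, 18330515 to 18345772), with 9 overlapped in replicate 1 and 10 in replicate 2. By the joining rule replicate 1 split it into 2 runs with 11 summits together, and replicate 2 gave 1 run of 11. The run in shn, whose zinc finger product acts downstream of BMP receptors, held 9 summits (2R, 11173607 to 11184562), with 8 and 9 overlapped. The run in Mnt, which encodes an antagonist of Myc, also held 9 (X, 3685347 to 3695456), with 8 and 9 overlapped. There replicate 1 gave a run of 8 summits. Replicate 2 gave a run of 14, which also spans the neighbouring joint run of 6 summits in Mnt.

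The next runs by size had 8 or 7 summits. At Tlk, the gene of a kinase of chromatin assembly, 8 intronic summits were overlapped in 7 and 8 cases. At CG12078 and CG43389 on 3L, 8 summits had a median signal of 770. In mtgo, 8 intronic summits lay a median of 562 bp apart. In sn, 8 summits were overlapped in 5 cases in replicate 1 and in all 8 in replicate 2, and the run repeated in replicate 2 only. Of the 9 runs with 7 summits, those at vri and babos had the highest summed signal. At vri, 7 summits were overlapped in 7 and 6 cases, and at babos all 7 were overlapped in each replicate.

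Several genes held more than 1 run. CG1677 held 3, with 20 run summits among its 23 joint summits, all 20 overlapped in both replicates. Some neighbouring summits were overlapped by the same replicate peak, so these are not 20 separate replicate peaks. Where the first of these runs held 7 summits, the joining rule gave 5 in replicate 1 and 7 in replicate 2. The middle run (X, 7299565 to 7307166, 8 summits) lay in an intron of CG1677 and ended 773 bp from a TSS of brk, which lies within the span of CG1677. That gene encodes Brinker, the repressor of Dpp target genes. A further 11 genes held 2 runs each. In sbb and shn these runs together took 16 summits each, in Mnt 15, in Tlk 13, and in the forkhead factor gene CHES-1-like 10. In each of these 5 genes both runs repeated in both replicates, where in Mnt 1 run of replicate 2 counts for both. The runs of E2f1, a cell cycle transcription factor gene, differed: the run from 21627924 to 21636515 on 3R had 1 of 5 peaks overlapped in replicate 1 and 5 in replicate 2, while the run from 21648719 to 21653069 had 5 and 5. In kirre, a cell adhesion gene, only 8 of the 30 joint summits stood in runs, in 2 runs of 4.

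The tallest runs were not the longest. By median joint signal the leading run lay at CG6927 and CG32772 on X (4906792 to 4911992), with 5 summits, a median of 1115 and best ranks of 34 and 10. The run at ush and cbt followed (2L, 479146 to 481978), with 4 summits, a median of 1113 and best ranks of 6 and 29. The run lies within ush, which encodes a partner of GATA factors. The nearest TSS of all 4 summits was one of cbt, 364 to 2290 bp away. The run in ph-p, a Polycomb gene, had 4 summits (X, 2134428 to 2137921), a median of 1059 and best ranks of 13 and 33. Next came 4 summits that began 761 bp from a TSS of fng, the gene of a glycosyltransferase that modifies Notch (3L, 20950273 to 20952246, median 784), and 4 at CG11357 (3L, 4541927 to 4546835, median 779). All peaks of these 5 runs were overlapped in both replicates, and all 5 runs repeated in both.

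How far runs repeat was then read from the replicate lists. These lists went into the joint list, so they are not independent of the choice of runs, and this is a description. From each replicate the 6270 strongest peaks were taken. Of the 1018 run peaks, 911 (89.5%) were overlapped by at least 1 bp in replicate 1 and 949 (93.2%) in replicate 2. Both replicates overlapped 843 (82.8%), replicate 1 alone 68, replicate 2 alone 106 and neither 1. Outside runs, 73.2% of joint peaks were overlapped in both. Overlap moved with signal. Among the 3135 strongest joint peaks it was 99.3% in runs (592 of 596) and 96.2% outside. Among the 3135 weaker ones it was 59.5% in runs (251 of 422) and 51.6% outside. In that weaker class the shares in replicate 1 were 75.1% in runs and 75.2% outside, and in replicate 2 they were 84.1% and 74.5%.

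Whole runs repeated less often than their peaks. The same joining rule gave 200 runs in replicate 1 and 229 in replicate 2, a mean of 214.5 ± 20.5 (SD, n = 2). Of the 208 joint runs, 158 (76.0%) shared bases with a run of replicate 1 and 174 (83.7%) with a run of replicate 2. Both replicates held 131 (63.0%), replicate 1 alone 27, replicate 2 alone 43 and neither 7. Seen from the replicates, 159 of the 200 runs of replicate 1 (79.5%) and 173 of the 229 of replicate 2 (75.5%) shared bases with a joint run. Repetition followed the size of the run: 51 of 110 runs with 4 summits repeated in both replicates, 60 of 76 with 5 or 6, and 20 of 22 with 7 or more. The rule itself favours this order. A larger run can lose summits and still keep 4, and a longer span is easier to overlap by 1 bp. In 85 of the 208 runs every peak was overlapped in both replicates.

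**Figure D2:**
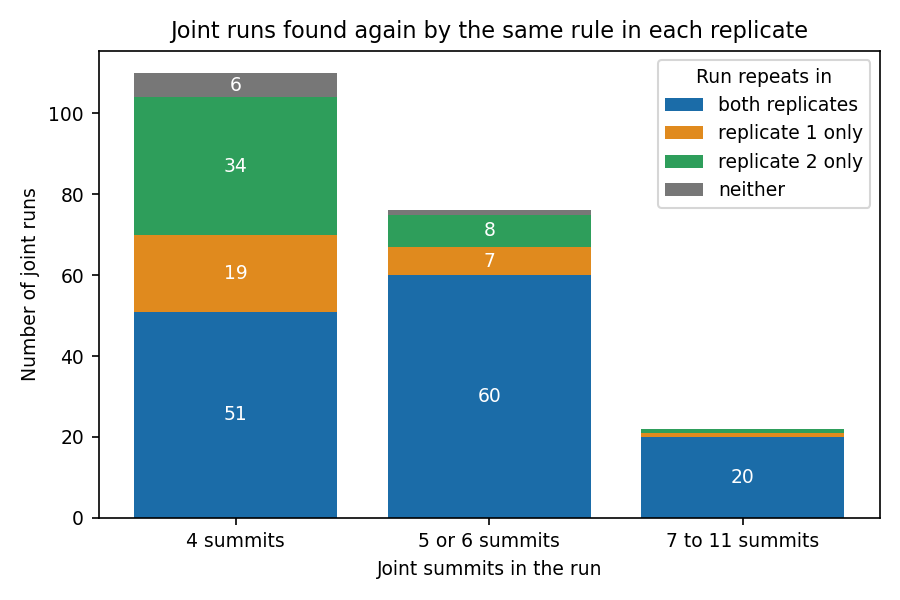
Number of joint runs (vertical axis) by the number of summits they hold, coloured by whether the same joining rule gave an overlapping run in the 6270 strongest peaks of both replicates, of replicate 1 only, of replicate 2 only or of neither. Both replicates held 51 of 110 runs with 4 summits, 60 of 76 with 5 or 6, and 20 of 22 with 7 to 11. The rule favours larger runs, which can lose summits and still keep 4.

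The runs with the lowest share of peaks overlapped in both replicates were small. They lay in E2f1 (the run named above, 1 of 5), in the adhesion gene Fas3 (1 of 4), in mgl, the gene of the endocytic receptor Megalin (1 of 4), at the Polycomb gene Psc (2 of 5), and in Ctps, the CTP synthase gene (2 of 5). The runs in CG46385 and at Cbs and Mgstl also had 2 of 5 and a lower summed signal. At Psc, 5 of 5 peaks were overlapped in replicate 1 and 2 of 5 in replicate 2. The tallest peak of that run ranked 190 and 57, and the peaks missed in replicate 2 were weaker ones. In Fas3 the counts were 4 and 1 of 4. The highest share, 100%, was reached by 85 runs, among them the run of 11 summits between CG18404 and heca and the runs of 8 between Ids and sty and in CG1677.

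Signal inside runs followed the same order in both libraries to a fair degree. Across the 1010 run peaks found in both full lists, the signals of the replicates correlated with Spearman's rho 0.75, and across the 4983 joint peaks outside runs with rho 0.65. Across the 208 runs, the median signals correlated with rho 0.71. These are descriptions over peaks and runs, which share the same 2 libraries and differ in base composition. In 200 runs every peak had a counterpart in both full lists, and in 140 of them (70.0%) the same peak was the strongest in both replicates.

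**Figure D3:**
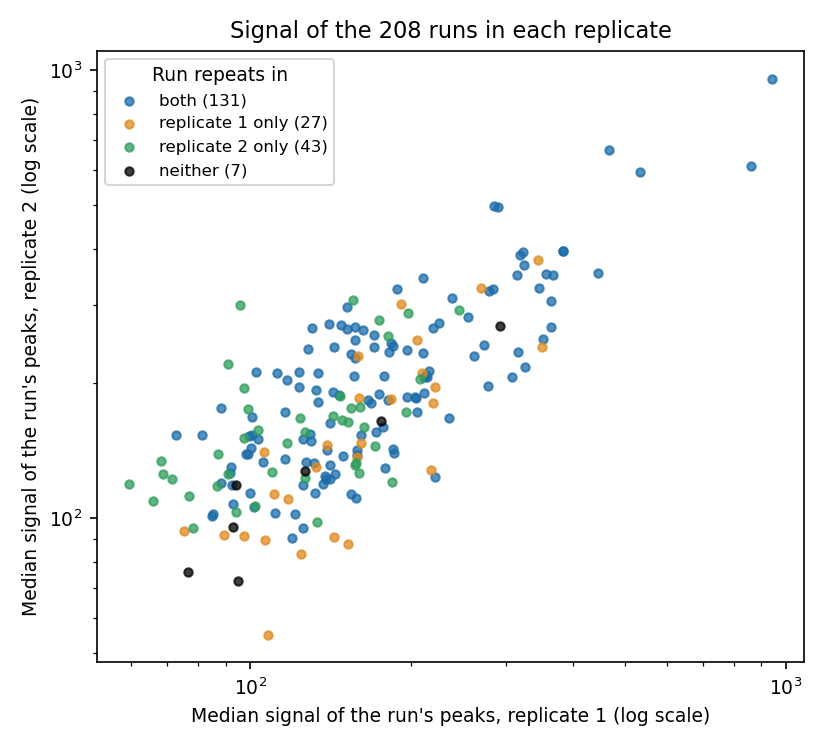
Median deposited signal of the peaks of each of the 208 runs in replicate 1 (horizontal) and replicate 2 (vertical), both on log axes, coloured by where the run repeats. The points follow a rising band (rho 0.71), and the runs that repeat in neither replicate (7 points) lie along the band.

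Run summits lay farther from gene starts than the other joint summits. Promoters, here 500 bp to either side of a protein-coding TSS, held 182 run summits (17.9%), against 35.8% of joint summits outside runs. Introns held 524 (51.5% against 42.2%) and intergenic sequence 297 (29.2% against 20.4%). Coding exons held 0 of 1018, against 9 of 5252 outside runs. In 5' UTRs lay 5 (0.491% against 0.704%) and in 3' UTRs 10 (0.982% against 0.704%). The median distance to a TSS was 2888 bp in runs and 1400 bp outside.

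The same shares were then read in each replicate on its own. They are a description: the classes come from the summit positions that the rule used, each replicate's runs were built by that rule, and a promoter window has room for few summits of a run. Inside the runs of its own 6270 strongest peaks, replicate 1 had 15.8% of summits in promoters, against 37.2% outside them, and replicate 2 had 17.3% against 36.0%. The difference was -20.1 ± 1.93 percentage points (SD, n = 2). For introns it was 11.1 ± 0.112 percentage points, and for intergenic sequence 9.17 ± 2.16. For the GC content of windows it was 0.0032 ± 0.537 percentage points and for TAATTA -0.66 ± 1.03, both within the spread. With 2 replicates no permutation test can reach a small p, so none is given.

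**Figure D4:**
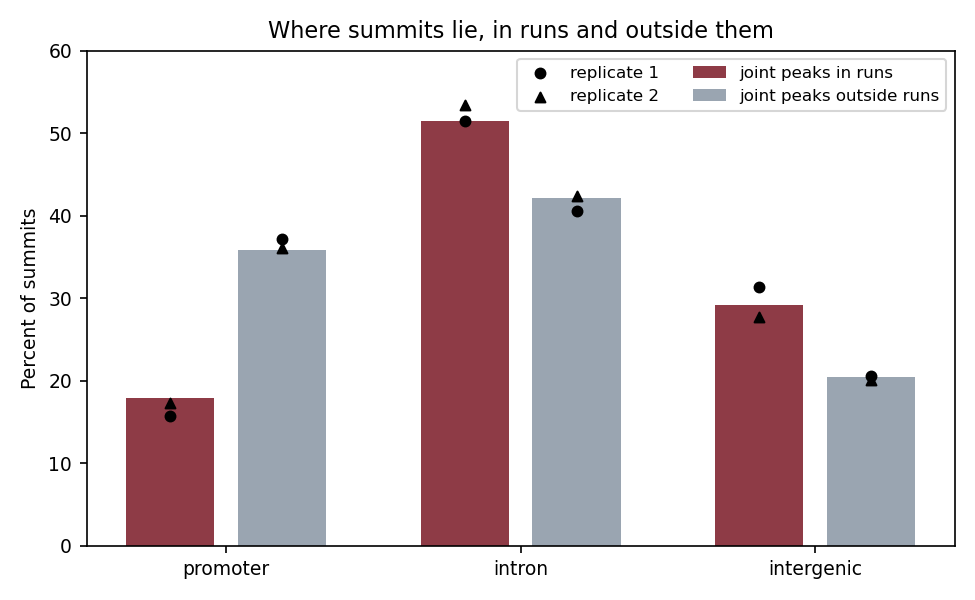
Percent of summits in promoters, introns and intergenic sequence, for joint peaks in runs and outside runs (bars) and for the same classes built from each replicate alone (circles and triangles). Promoters held 17.9% of run summits and 35.8% of the others, and in each class the replicate points in runs stand apart from those outside.

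Seen by run, 101 of the 208 lay wholly inside a protein-coding gene, 60 partly over genes and 47 over none. A TSS fell inside 100 runs, and the TSS of more than 1 gene inside 19. In 104 runs no summit was in a promoter, in 53 exactly 1 was, and in 4 all were. In 59 runs all summits were intronic and in 39 all were intergenic. The strongest peak of the run was in a promoter in 44 runs. The runs that lay wholly inside genes had 96 such host genes, whose median length was 36360 bp.

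Over the chromosome arms, X carried 51 runs (2.17 per Mb), 3L 44 (1.57), 3R 42 (1.31), 2L 39 (1.66) and 2R 32 (1.27). On X, 20.9% of joint peaks stood in runs, and on the other large arms 14.0 to 16.7%. Chromosome 4 had 15 joint peaks and no run. The replicates taken alone gave 43 and 56 runs on X, and on 3L 47 and 49. Per Mb, X carried 1.83 and 2.39 runs in replicates 1 and 2, 3L 1.68 and 1.75, and 2L 1.70 and 1.79, so X led in both.

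The runs shared bases with 186 of 13945 protein-coding genes, 1.33%. Those genes were long, with a median of 17676 bp against 2166 bp over all genes, and a longer gene has more room for a run. Of the 1977 genes of at least 10000 bp, 126 shared bases with a run (6.37%). Both shares stand beside the gene lists below, which were compiled with earlier results of these data known. Since the lists were not tested, the counts are descriptions. Of the 186 genes, 136 were also touched by runs of replicate 1 (73.1%), 152 by runs of replicate 2 (81.7%) and 111 by runs of both (59.7%).

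Corepressor genes had the highest share, with 7 of 14. Besides sbb and Gug they were Smr, brat, HDAC4, Sin3A and nej. Of these, brat is better known as a repressor of translation and nej encodes a coactivator, the histone acetyltransferase CBP. The run in Gug held 6 summits (4 overlapped in both replicates) and the run in Smr, the gene of a nuclear receptor corepressor, 5 (4 overlapped). The run in brat held 5, with 5 overlapped in replicate 1 and 4 in replicate 2. Of the corepressor genes, 9 reached 10000 bp, and the 7 touched ones were among them. In 4 of the 7 a run repeated in both replicates, while the runs in Smr and Sin3A repeated in replicate 2 only and the run in brat in replicate 1 only.

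EGFR and Ras pathway genes were touched in 6 of 25 cases. The ligand gene spi had a run of 5 summits (2L, 19572946 to 19576851) and the rhomboid protease gene ru, whose class of enzyme releases the ligand, a run of 4, which also lies within Ptp61F. All peaks of both runs were overlapped in both replicates. In the middle of the pathway stood Raf. Of the nuclear factors, the ETS activator gene pnt had 5 run summits, 4 of them overlapped in both replicates. The ETS repressor gene aop had 7 inside it, all overlapped, from 2 runs that repeated in both. The secreted inhibitor gene aos was touched by a run that did not repeat in both.

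BMP pathway genes were touched in 5 of 23 cases: the ligand gene dpp, the receptor gene tkv, the zinc finger gene shn, the secreted modulator gene magu, also known as pent, and the glypican gene dlp. At dpp 4 summits stood from 2433030 to 2436459 on 2L, the tallest with signal 1800, with 4 overlapped in replicate 1 and 3 in replicate 2. At tkv 5 summits had 4 and 5 overlapped. At magu all 4 were overlapped in each replicate, yet by the joining rule that run repeated in replicate 2 only.

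Polycomb, trithorax and Brahma genes were touched in 5 of 34 cases. The Brahma complex gene osa had 5 run summits and Trl, which encodes the GAGA factor, 4, all overlapped in both replicates, with tallest signals of 2631 and 2175. With ph-p these were the members whose runs repeated in both, while the runs at trx and Psc did not. The Myc network had 2 of 5, Mnt and Myc. At Myc, a growth regulator gene, 4 summits had 4 and 3 overlapped. Notch genes were touched in 3 of 22 cases: the coactivator gene mam, the protease gene kuz, and E(spl)mbeta-HLH, which lies within the span of a run but holds none of its summits. Wnt genes had 2 of 23, nkd and fz3, neither with a run that repeated in both replicates.

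The other lists had at most 1 member each, except that axon guidance genes had 3 of 47 (Fas3, Ptp10D and robo2). The single members were ptc of 12 Hedgehog genes, kibra of 17 Hippo genes, E2f1 of 21 cell cycle genes, Diap1 of 14 cell death genes, vri of 13 clock genes, and Trl of 14 insulator genes. The adhesion gene kirre was the 1 touched member of 4 cell recognition genes and, as a founder gene of muscle fusion, of 32 muscle genes. Of 71 homeobox genes, 43 of them at least 10000 bp long, NK7.1 was touched (1.41%), by a run of 4 that repeated in replicate 1 only. It was also the 1 touched gene of the 43 long ones, against 6.37% over all genes of at least 10000 bp. Of 92 ribosomal protein genes RpS25 was touched (1.09%), and it held none of the run's summits. For both full lists the share lies near the 1.33% over all protein-coding genes. Counts this small are not read as a difference.

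In 3 lists no member was touched. The 20 ecdysone response genes were long, with a median of 36625 bp, and 14 reached 10000 bp. They held 68 joint summits, in 16 of the genes, with 15 in Eip75B, and 0 of these genes shared bases with a run. Over all genes of at least 10000 bp the share touched was 6.37%. At that share, lists this short can easily hold none, so the 0 is not read as a difference. Eip75B encodes a nuclear receptor. The 19 insulin and TOR genes held 27 joint summits and the 24 listed genes of small GTPases and the cytoskeleton 29, likewise with no member touched. That last list does not hold every such gene. The actin-bundling gene sn, with its run of 8 summits, is not in it.

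**Figure D5:**
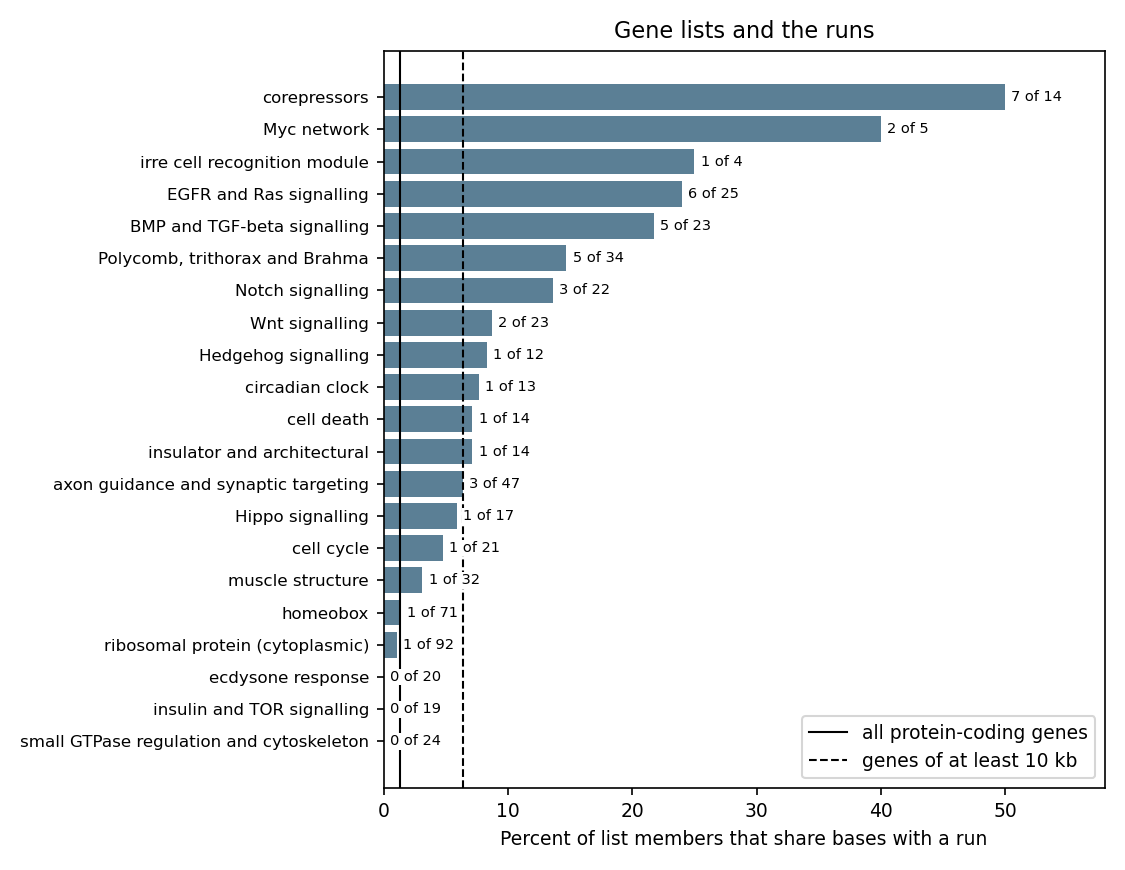
Percent of the members of each gene list that share bases with a run, with counts beside the bars; the solid line marks all protein-coding genes (1.33%) and the dashed line genes of at least 10000 bp (6.37%). Corepressor genes reach 7 of 14. The ecdysone response list has 0 of 20, and at the share of the dashed line a list this short can easily hold none.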

How the data were processed

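4 peak lists were used: replicate 1, replicate 2, their pool and the joint list. Per the deposited text descriptions, peaks were called on each library and on the pool against a control on assembly dm6, and both replicates and their pool fed the joint list. No source used here names the caller. The signal value deposited per peak is a score of unknown scaling. It is used within a list, and between the replicate lists only through ranks. The deposited -log10 q-value was used only as an alternative filter, at a q-value of at most 0.05. Each replicate list holds 30000 peaks, from which the 6270 strongest by signal were taken. No source used here gives read depth, and the precision of single peaks is unknown.

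Runs were built from 1-based summits. A joint run repeats where the same rule in a replicate list gives a run that shares at least 1 bp. A replicate peak can overlap more than 1 joint peak, and 14 run peaks share their interval with another summit. Genes and TSS came from Ensembl release 115 and sequence from RefSeq Release 6. Features were assigned in the order promoter, 5' UTR, coding exon, 3' UTR, intron, intergenic. Of the list symbols, 19 were matched through older names and 10 were left unmatched. The text names the 15 runs with most summits, the 5 with the highest median signal, the 5 with the lowest and the 5 with the highest share of peaks in both replicates, with ties broken by number of summits and then summed signal, and up to 4 members of each list; any other name was added after its values were seen. Members and lists were chosen with earlier results of these data known. No test was made over peaks or genes. The run finder and the overlap were tested on simulated data. Python 3.11.15, numpy 2.4.6, pandas 2.3.3, scipy 1.17.1 and matplotlib 3.10.9 were used.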

Additional observations from a re-analysis of the deposited data

How the results depend on the processing

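The number of runs depends on the rule. With neighbours joined at 2000 bp there were 125 runs with 575 peaks, touching 98 genes, and at 5000 bp 347 runs with 1844 peaks, touching 409. With at least 3 summits there were 485 runs (1849 peaks, 420 genes), with at least 5 there were 98 (578 peaks, 85 genes), and in the 3135 strongest joint peaks 46 (212 peaks, 29 genes). Fewer peaks or a stricter rule give fewer runs by construction. Counting summits under 200 bp apart as 1 changed little (206 runs). Runs that repeat in both replicates rose to 208 of 208 with the full lists of 30000 peaks and fell to 85 where every peak had to be overlapped in both. They numbered 192 at a q-value of at most 0.05 and 125 where the run had to be covered to at least 50%. That q-value kept lists of unequal size, 9154 peaks in replicate 1 and 18385 in replicate 2, both longer than 6270. The share of run peaks overlapped in both was 99.2% with the full lists, 95.7% at that q-value and 72.3% with 50% of the peak covered, and 89.5 to 93.2% in a replicate alone. The promoter share of run summits was 10.5% with a window of 250 bp, 25.9% with 1000 bp, 15.1% with joining at 2000 bp, and 15.8 to 17.3% in runs of a replicate alone. TAATTA lay in 8.44 to 9.22% of windows in runs of a replicate alone and in 16.7% of windows of 100 bp to either side, whose mean GC content was 35.0%. The values of a replicate alone for genes, promoters, TAATTA and GC content, and GC content by join distance, were added after the data were seen. No paired analysis was possible because the libraries form 1 group, so no 2 groups share replicate numbers; the differences between run summits and others were taken within each replicate. Read depth is not given, so what depth limits is unknown.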

Other observations

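Runs also lay close to each other. Of the 208 runs, 43 had another run within 20000 bp. On X, 4 runs stood between 12660234 and 12757291: a pair in Tis11, whose product binds mRNA and promotes its decay, then the run in Smr and the run at Paics.

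Of the 47 runs outside protein-coding genes, 24 shared bases with a non-coding gene. Nearest TSS lay 2 to 31108 bp from the edges of these 47 runs, with a median of 3172 bp.

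Peaks of the pooled list below the joint threshold stood in the runs too. Of 23730 such peaks, 423 had their summit inside the span of a run, or 3.92 per 10000 bp against 1.76 per 10000 bp in the rest of the assembled arms, and 161 runs held at least 1. The runs were drawn from the same pooled list, so this is a description.

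The gene CG34367 itself (2L, 10347851 to 10353905) held 0 joint summits, and the nearest run lay 711649 bp away.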
